A study of Homo sapiens with 10 samples.

Results

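The E2F transcription factors E2F1 to E2F8 were followed at the RNA level in stable human liver tumour lines that carried a decoy against the miR-17 family. The 8 genes were chosen by symbol from the 19215 gene symbols of the count files, and all 8 were among the 13349 genes with enough counts to be tested. The groups were HepG2 miR-17 TuD with 3 libraries, HepG2 NC TuD with 3, SK-Hep1 miR-17 TuD with 2 and SK-Hep1 NC TuD with 2. A TuD, or tough decoy, is an RNA hairpin that holds a microRNA in exposed binding sites, and NC TuD is the control decoy. In every group cells had met lentivirus for 48 h (multiplicity of infection 5, 10 µg/mL polybrene) and had then been kept in 1 µg/mL puromycin for 2 weeks. Resistant colonies were pooled, so each group is 1 stable line, and what the decoy did cannot be told apart from what differed between the stable lines of a cell line for other reasons. Whether replicates came from separate cultures is not given, so the p-values measure the spread between these libraries, which may be technical.

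Each library held 12884225 to 15076431 counts in genes, at which 1 count is worth 0.0657 to 0.0795 CPM (counts per 1000000 counts of the library). HepG2 is a hepatocyte-like line, and the summed level of 8 hepatocyte markers was 43900 to 52300 CPM in its libraries. SK-Hep1 comes from a liver tumour and has a reported endothelial origin. Its libraries held 74.1 to 102 CPM of the hepatocyte markers, with TTR at 0 in every library, and 0.428 to 1.19 CPM of 7 endothelial markers, with PECAM1 and KDR at 0. The markers of neither cell type were thus present at a level that would name SK-Hep1. ALB, the albumin gene of HepG2, had 0 and 4 counts in the SK-Hep1 miR-17 TuD libraries and 59 and 113 in the SK-Hep1 NC TuD libraries, at most 0.055% of the HepG2 NC TuD level.

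E2F proteins bind the promoters of cell cycle genes. E2F1, E2F2 and E2F3 activate the genes of DNA synthesis once the retinoblastoma protein is phosphorylated and releases them. E2F4 and E2F5 act mostly as repressors with the pocket proteins p107 and p130, E2F6 represses without a pocket protein as part of a Polycomb complex, and the atypical E2F7 and E2F8 repress without a DP partner and are themselves E2F targets. The family and the miR-17 family are linked in both directions in textbook accounts, since miR-17 and miR-20a bind the E2F1 transcript and activator E2Fs bind the promoter of the miR-17-92 cluster. MicroRNAs were not measured in these libraries.

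The decoy is directed at miRNAs that share bases 2 to 8, the seed, which is in capitals. The RefSeq table on GRCh38.p14 held 8 mature miRNAs with this seed, and the 6 of the miR-17 family proper are shown because any match in an E2F transcript must pair with these letters.
miR-17-5p: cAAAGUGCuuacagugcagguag
miR-20a-5p: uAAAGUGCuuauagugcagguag
miR-20b-5p: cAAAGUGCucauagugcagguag
miR-93-5p: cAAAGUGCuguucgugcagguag
miR-106a-5p: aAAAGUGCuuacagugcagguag
miR-106b-5p: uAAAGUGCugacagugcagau

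Matches to the seed were searched on the sense strand of the longest annotated 3′ untranslated region (3′UTR) of each gene. The full match, GCACTTTA, is called an 8mer, its first 7 bases, GCACTTT, a 7mer-m8, and a 7mer-m8 was counted only outside an 8mer. E2F1, E2F2, E2F3 and E2F5 held at least 1 such match, and E2F4, E2F6, E2F7 and E2F8 held none. The same 4 members held a match when every annotated 3′UTR was searched. Of 13225 tested genes with a searched 3′UTR, 25.0% held an 8mer or a 7mer-m8, so a match is common and is a description, not proof of binding. The matches of the activator E2Fs are shown in 30 bases each, written 5′ to 3′ as DNA on the strand of the transcript, with the match in capitals, because the decoy results turn on whether these transcripts moved.
E2F1 first site: ggggggctctaactGCACTTTcggcccttt
E2F1 second site: ccaccctccaatctGCACTTTgatttgctt
E2F2 first site: catggctgtggcggGCACTTTtcctcagag
E2F2 second site: ggctcagctggacaGCACTTTttagaaaag
E2F2 last site: gaaccttgcctgtgGCACTTTtcgagggtg
E2F3 site: gacagatgacaccaGCACTTTAaactcttt

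On GRCh38, in the gene models of GENCODE 29, the E2F1 sites lie at chr20:33676330-33676359 and chr20:33675737-33675766 on the minus strand, within a 3′UTR of 1049 bases. The E2F2 sites lie at chr1:23508960-23508989, chr1:23508346-23508375 and chr1:23506582-23506611 on the minus strand, within a 3′UTR of 3450 bases. The E2F3 8mer lies at chr6:20492240-20492269 on the plus strand, within a 3′UTR of 3285 bases. E2F5 also held an 8mer, at base 508 of a 3′UTR of 656 bases. The counts themselves were made on hg19, per the submitters' processing notes, and no coordinate was taken from that build.

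The first comparison asked whether the E2F transcripts moved when the miR-17 family was held by the decoy in HepG2. E2F8, an atypical repressor with no seed match, was the only member that passed the test, and it was 1.19-fold higher. No member with a seed match passed it. Of the 3312 tested genes with an 8mer or a 7mer-m8, 15.1% were called higher and 6.76% lower in this comparison. Calls are at an adjusted p below 0.05 in edgeR's quasi-likelihood test, with Benjamini-Hochberg adjustment over all tested genes. By that rule 1 of 8 members was called higher and 0 of 8 lower, beside 10.7% of all tested genes called higher and 8.58% called lower. At an unadjusted p below 0.05 the counts were 3 members higher and 0 lower. Such counts were not made over all tested genes, here or for the lists below, so they have no background beside them. Limma on the deposited log2 values also called 1 member higher and 0 lower, and DESeq2 called 0 in either direction, with 1 member higher at an unadjusted p below 0.05.

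E2F8 had 24.5, 26.0 and 26.5 CPM in the HepG2 miR-17 TuD libraries, against 22.8, 20.0 and 21.8 CPM in the HepG2 NC TuD libraries. Every decoy library lay above every control library. The log2 fold change was 0.25 ± 0.08 (SE, n = 3 each; adjusted p = 0.0162, edgeR). The call was lost with DESeq2 (0.26, adjusted p = 0.0591). It was also lost without HepG2 miR-17 TuD replicate 2 (0.24, adjusted p = 0.0524) and without HepG2 NC TuD replicate 2 (0.20, adjusted p = 0.109). An antisense gene that was not among the counted symbols shares exon bases with E2F8, and the library kit does not record the strand, so reads of the pair cannot be told apart.

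Among the activators with seed matches, E2F1, which drives both proliferation and apoptosis genes, had 88.1, 96.4 and 84.8 CPM in HepG2 miR-17 TuD, against 89.2, 81.5 and 91.7 CPM in HepG2 NC TuD. The groups overlapped, and the log2 fold change was 0.04 ± 0.05 (SE, n = 3 each; adjusted p = 0.694, edgeR). Its 95% interval, -0.07 to 0.14, ends at a 1.1-fold increase. E2F2, the activator with the most matches, had 28.3, 28.0 and 29.6 CPM in HepG2 miR-17 TuD, against 24.5, 25.8 and 26.6 CPM in HepG2 NC TuD. These libraries did not overlap, yet the difference of 0.16 ± 0.08 on the log2 scale did not pass the adjustment (SE, n = 3 each; adjusted p = 0.148, edgeR). Its interval reached 0.31 on the log2 scale.

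The members that hold an 8mer had lower means in the decoy libraries. E2F3, the activator made from alternative promoters as a long and a short form that gene counts cannot separate, had 48.8, 47.9 and 48.5 CPM in HepG2 miR-17 TuD, against 49.2, 49.3 and 53.6 CPM in HepG2 NC TuD. The libraries did not overlap, and the log2 fold change was -0.07 ± 0.06 (SE, n = 3 each; adjusted p = 0.47, edgeR). E2F5, the repressor partner of p130, had 18.1, 16.3 and 19.3 CPM in HepG2 miR-17 TuD, against 20.8, 19.2 and 19.6 CPM in HepG2 NC TuD. Its log2 fold change was -0.15 ± 0.09 (SE, n = 3 each; adjusted p = 0.256, edgeR), with an interval from -0.34 to 0.03. For E2F3 the interval ended at 0.05, so neither interval held an increase above that size. E2F5 shares exon bases on the opposite strand with C8orf59, which was itself lower in HepG2 miR-17 TuD (-0.37 ± 0.09 log2, adjusted p = 0.000904, edgeR), and the part of these reads in the E2F5 value was not tested.

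For scale, of the 705 tested genes with an 8mer 24.7% were called higher in HepG2 miR-17 TuD, against 9.2% of the 9087 genes with no seed match of any of 3 kinds. In SK-Hep1 these shares were 5.82% and 0.319%. E2F3 and E2F5 were in the 8mer group and were called in neither line. A pair of genes served as benchmarks of the decoy, chosen with their values known. ZNFX1, a zinc finger gene, averaged 88.1 CPM in HepG2 miR-17 TuD and 48.7 CPM in HepG2 NC TuD (0.85 ± 0.05 log2; adjusted p = 4.64e-20, edgeR), and 160 CPM in SK-Hep1 miR-17 TuD and 114 CPM in SK-Hep1 NC TuD (0.49 ± 0.05 log2; adjusted p = 4.52e-09). TGFBR2, a receptor gene for TGF-beta, was higher with the decoy by 0.44 ± 0.04 log2 in HepG2 (adjusted p = 6.33e-15, edgeR) and by 0.60 ± 0.05 in SK-Hep1 (adjusted p = 1.39e-13). MCM7, the host gene of a miR-17 family cluster, differed by -0.02 ± 0.04 in HepG2 and -0.12 ± 0.04 in SK-Hep1 (adjusted p = 0.781 and 0.289).

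The members without a seed match other than E2F8 did not pass the test in HepG2 either. E2F4, the main E2F of resting cells, differed by 0.10 ± 0.05 on the log2 scale (adjusted p = 0.165, edgeR). E2F6, the Polycomb-linked repressor, differed by -0.11 ± 0.06 (adjusted p = 0.214), and E2F7, which represses E2F1 together with E2F8, by 0.10 ± 0.07 (adjusted p = 0.403). Between the HepG2 groups, 2 members were higher and 1 was lower with no overlap of libraries, in a comparison where 31.0% of all tested genes showed no overlap, 16.1% higher and 14.9% lower.

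**Figure D1:**
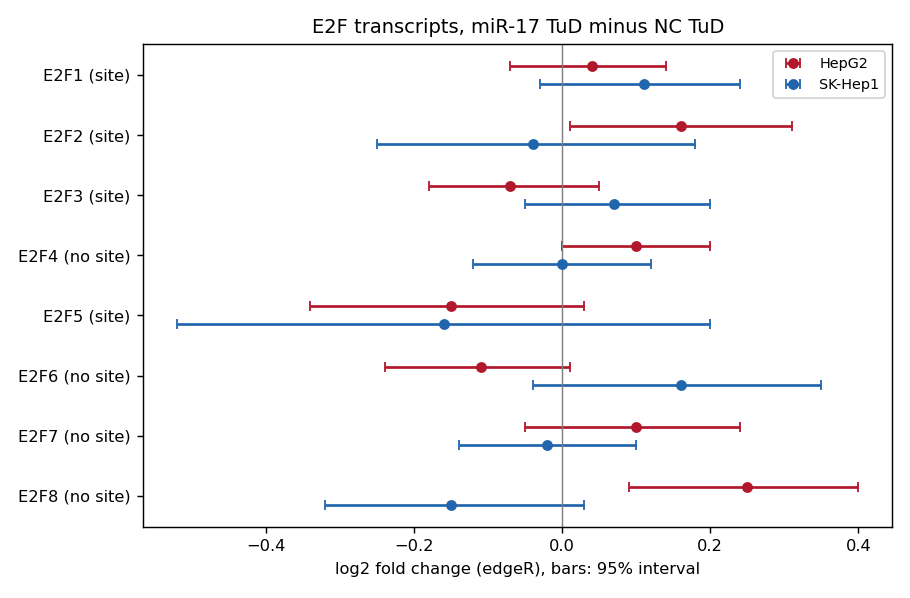
Log2 fold change of each E2F gene, miR-17 TuD minus NC TuD, in HepG2 (red, n = 3 each) and SK-Hep1 (blue, n = 2 each), with 95% intervals as bars; "site" marks genes with an 8mer or 7mer-m8 in the 3′UTR. The E2F8 value in HepG2, 0.25, passed the adjusted test, and the 4 genes with a site lie between -0.16 and 0.16.

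In SK-Hep1 no E2F gene was called: 0 of 8 passed edgeR's test, in a comparison where 0.869% of all tested genes did, 0.667% of them higher and 0.202% lower. DESeq2 and limma on the deposited log2 values also called 0 of 8, and at an unadjusted p below 0.05 the count was 0 of 8 with each of the 3 tools. E2F8 was again the member with the smallest p, but in the other direction. It had 28.7 and 28.5 CPM in SK-Hep1 miR-17 TuD, against 31.8 and 31.5 CPM in SK-Hep1 NC TuD. The groups did not overlap, and the log2 fold change of -0.15 ± 0.09 did not pass (SE, n = 2 each; adjusted p = 0.692, edgeR).

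None of the members with seed matches was called in SK-Hep1. Of tested genes with an 8mer or a 7mer-m8, 1.69% were called higher there and 0.242% lower. E2F1 had 68.2 and 66.4 CPM in SK-Hep1 miR-17 TuD, against 59.4 and 65.5 CPM in SK-Hep1 NC TuD, a log2 fold change of 0.11 ± 0.07 (adjusted p = 0.729, edgeR). E2F3 had 77.7 and 78.2 CPM in SK-Hep1 miR-17 TuD, against 74.3 CPM in both SK-Hep1 NC TuD libraries, a log2 fold change of 0.07 ± 0.06 (adjusted p = 0.821, edgeR). For both the decoy libraries lay above the control libraries, by less than the test could call. E2F2 had 17.4 and 17.2 CPM in SK-Hep1 miR-17 TuD, against 15.9 and 19.5 CPM in SK-Hep1 NC TuD, and these overlapped. E2F5 had 5.23 and 4.83 CPM in SK-Hep1 miR-17 TuD, against 6.53 and 4.73 CPM in SK-Hep1 NC TuD, and these overlapped too. Their log2 fold changes were -0.04 ± 0.11 for E2F2 (adjusted p = 0.976, edgeR) and -0.16 ± 0.18 for E2F5 (adjusted p = 0.877). The 95% intervals on the log2 scale ran from -0.03 to 0.24 for E2F1 and from -0.25 to 0.18 for E2F2. They ran from -0.05 to 0.20 for E2F3 and from -0.52 to 0.20 for E2F5.

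E2F6 had 23.4 and 25.9 CPM in SK-Hep1 miR-17 TuD, against 20.9 and 23.4 CPM in SK-Hep1 NC TuD. Before rounding its libraries did not overlap, and the log2 fold change was 0.16 ± 0.10 (adjusted p = 0.707, edgeR). E2F4 differed by 0.00 ± 0.06 and E2F7 by -0.02 ± 0.06. Between the SK-Hep1 groups, 3 members were higher and 1 was lower with no overlap, where 40.4% of all tested genes showed no overlap, 18.4% higher and 21.9% lower.

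The difference between the responses of the lines was tested directly, as the SK-Hep1 response minus the HepG2 response. E2F8 was the only member called: 1 of 8 was called lower and 0 of 8 higher, beside 3.75% of tested genes called, 2.51% lower and 1.24% higher. At an unadjusted p below 0.05 edgeR counted 1 member in each direction, and DESeq2 and limma did the same while calling 0 after adjustment. The E2F8 responses, -0.15 in SK-Hep1 and 0.25 in HepG2 on the log2 scale, differed by -0.39 ± 0.12 (SE; adjusted p = 0.0394, edgeR). This call was lost with DESeq2 (adjusted p = 0.168), on the deposited log2 values (adjusted p = 0.0761), and without any of 7 libraries. These were HepG2 miR-17 TuD replicates 2 and 3, HepG2 NC TuD replicate 2 and all 4 SK-Hep1 libraries, with values of -0.40 to -0.34 and adjusted p of 0.0542 to 0.138. The member nearest to a call otherwise was E2F6, at 0.27 ± 0.11 (adjusted p = 0.22, edgeR). E2F1, E2F2, E2F3, E2F4, E2F5 and E2F7 differed by between -0.20 and 0.14.

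For E2F1, E2F2, E2F3, E2F5, E2F6 and E2F7 much larger differences lay between the lines than between the decoys. This did not hold for E2F4, nor for E2F8 in the miR-17 TuD groups. In the NC TuD groups, SK-Hep1 had more RNA of both atypical repressors and of E2F3, and less of E2F1, E2F2, E2F5 and E2F6, while E2F4 did not pass the test. In that comparison 7 of 8 members were called, 3 higher and 4 lower, where 86.7% of all tested genes were called, 43.9% higher and 42.8% lower. In the miR-17 TuD groups 6 of 8 were called, 2 higher and 4 lower, where 87.3% of all tested genes were, 44.1% higher and 43.1% lower. Both shares are close to that background, so the sizes and directions carry the description. The comparisons use different libraries and are given side by side. Since these are bulk samples of whole cultures, fewer cells in a cell cycle phase and less RNA per cell cannot be told apart.

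**Figure D2:**
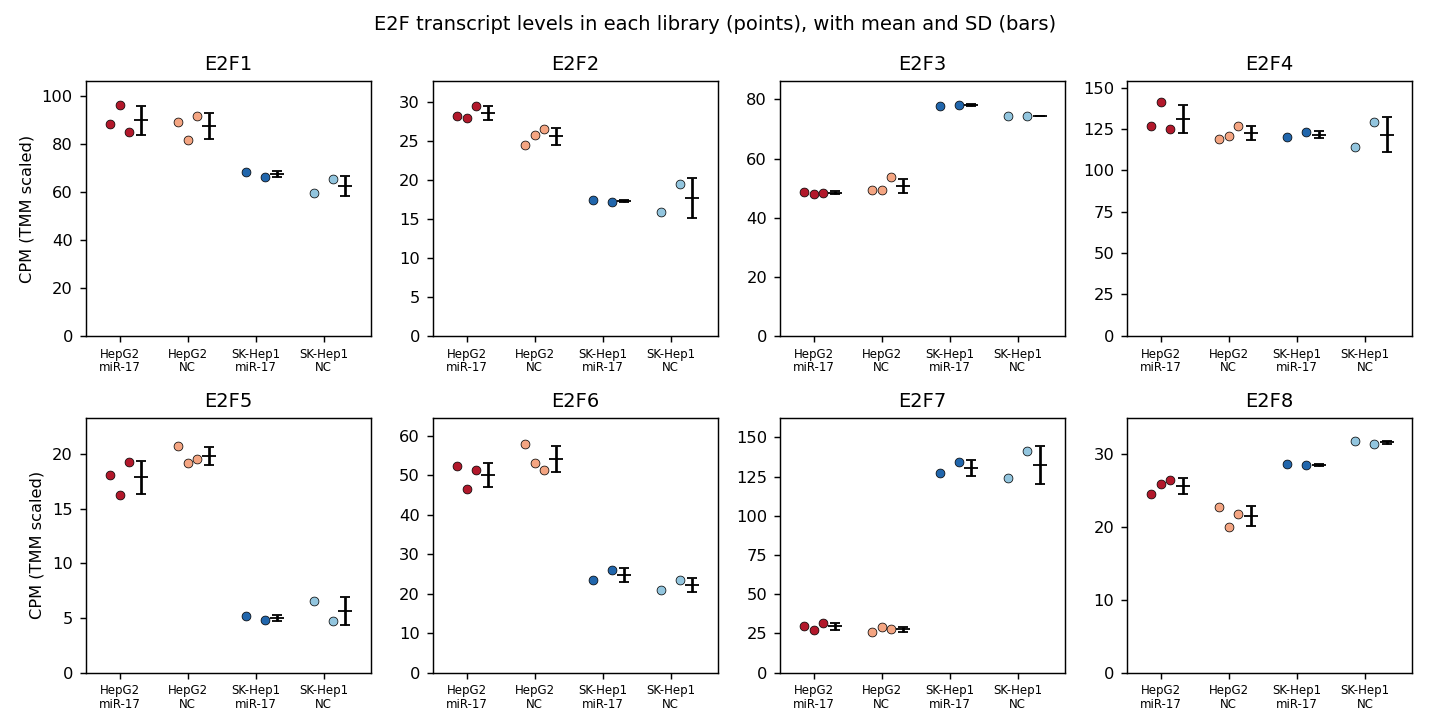
CPM with TMM scaling of each E2F gene (one panel per gene, linear axes from 0) in the 10 libraries; points are libraries and the black bars give the mean and SD of each group. E2F7 lies between 124 and 141 CPM in SK-Hep1 and between 25.8 and 31.4 CPM in HepG2, whereas the E2F4 ranges of the lines overlap.

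E2F7 differed most. It had 127 and 134 CPM in SK-Hep1 miR-17 TuD and 124 and 141 CPM in SK-Hep1 NC TuD, against 29.8, 27.2 and 31.4 CPM in HepG2 miR-17 TuD and 25.8, 29.3 and 27.5 CPM in HepG2 NC TuD. Every SK-Hep1 library was far above every HepG2 library. Of all tested genes, 90.4% showed no overlap between the lines in the NC TuD groups and 90.3% in the miR-17 TuD groups. In the NC TuD groups E2F7 was 4.83-fold higher in SK-Hep1 (2.27 ± 0.06 log2; adjusted p = 1.44e-38, edgeR), and in the miR-17 TuD groups 4.43-fold higher (2.15 ± 0.06 log2; adjusted p = 1.29e-37).

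Its partner E2F8 was 1.47-fold higher in SK-Hep1 NC TuD than in HepG2 NC TuD (0.55 ± 0.08 log2; adjusted p = 1.74e-08, edgeR). In the miR-17 TuD groups the difference was 0.16 ± 0.08 and did not pass the test (adjusted p = 0.0676). The change between 0.55 and 0.16 is the E2F8 difference in response given above. Its libraries did not overlap in the miR-17 TuD groups, where 90.3% of all tested genes showed no overlap, 45.9% higher and 44.4% lower.

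The repressors E2F5 and E2F6 were lower in SK-Hep1. E2F5 had 5.23 and 4.83 CPM in SK-Hep1 miR-17 TuD and 6.53 and 4.73 CPM in SK-Hep1 NC TuD, while its 6 HepG2 libraries held 16.3 to 20.8 CPM. Its level in SK-Hep1 was 0.283 times that in HepG2 in the NC TuD groups (-1.82 ± 0.13 log2; adjusted p = 8.66e-20, edgeR) and 0.282 times in the miR-17 TuD groups (-1.83 ± 0.13 log2; adjusted p = 7.65e-19). C8orf59, which overlaps it, was 0.20 ± 0.09 log2 higher in SK-Hep1 NC TuD than in HepG2 NC TuD (adjusted p = 0.0334, edgeR), the opposite direction. That call was lost with DESeq2 (adjusted p = 0.12), on the deposited log2 values (adjusted p = 0.0873) and without HepG2 NC TuD replicate 3 (0.13 log2, adjusted p = 0.206). Without SK-Hep1 NC TuD replicate 2 the difference was 0.16 log2. In the miR-17 TuD groups C8orf59 was 0.70 ± 0.09 log2 higher in SK-Hep1 (adjusted p = 4.92e-10, edgeR). E2F6 had 20.9 to 25.9 CPM in the SK-Hep1 libraries and 46.5 to 57.9 CPM in the HepG2 libraries. Its log2 difference was -1.29 ± 0.08 in the NC TuD groups (adjusted p = 3.54e-22) and -1.02 ± 0.08 in the miR-17 TuD groups (adjusted p = 7.41e-18). E2F6 has 4 annotated pseudogenes, E2F3 has 2 and E2F4 has 1, none of them among the counted symbols, so reads lost to such copies are not known.

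The activators did not move as a block between the lines. E2F1 was lower in SK-Hep1, by -0.49 ± 0.06 log2 in the NC TuD groups (adjusted p = 2.3e-10, edgeR) and -0.42 ± 0.06 in the miR-17 TuD groups (adjusted p = 1.1e-08). E2F2 was lower as well, by -0.53 ± 0.09 (adjusted p = 5.62e-07) and -0.72 ± 0.09 (adjusted p = 1.95e-10). E2F3 was higher, by 0.55 ± 0.06 (adjusted p = 1.82e-12) and 0.69 ± 0.06 (adjusted p = 5.66e-16).

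The canonical repressor E2F4 had 120 and 123 CPM in SK-Hep1 miR-17 TuD and 114 and 129 CPM in SK-Hep1 NC TuD, against 127, 141 and 125 CPM in HepG2 miR-17 TuD and 119, 121 and 127 CPM in HepG2 NC TuD. In the NC TuD groups the log2 difference was -0.01 ± 0.05 (adjusted p = 0.863, edgeR), with a 95% interval from -0.12 to 0.10. In the miR-17 TuD groups it was -0.10 ± 0.05 (adjusted p = 0.0697). This last value passed the threshold with no filter on low counts (-0.11, adjusted p = 0.048), without HepG2 miR-17 TuD replicate 1 (-0.13, adjusted p = 0.0498) and without HepG2 miR-17 TuD replicate 3 (-0.14, adjusted p = 0.0158).

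**Figure D3:**
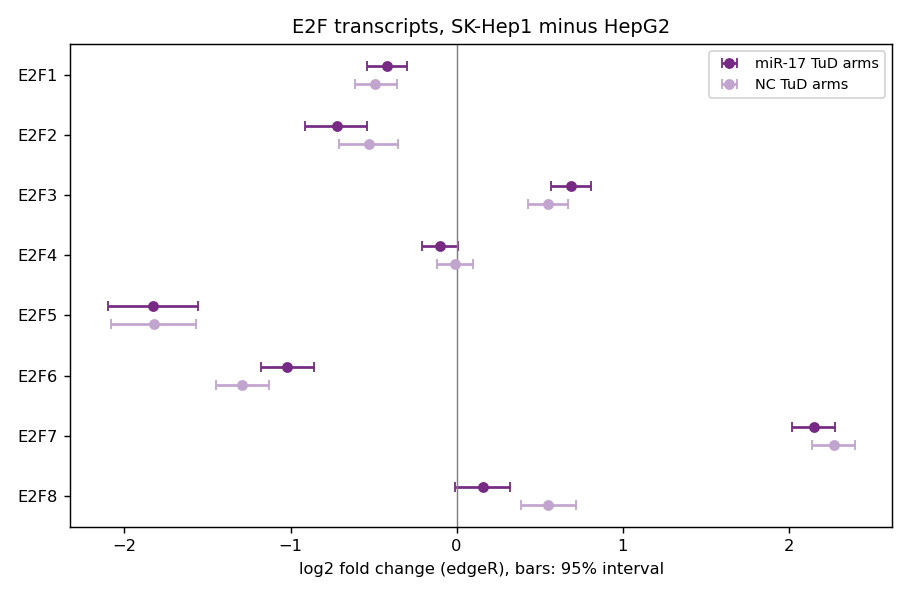
Log2 fold change of each E2F gene, SK-Hep1 minus HepG2, in the miR-17 TuD groups (dark, 2 against 3 libraries) and the NC TuD groups (light, 2 against 3 libraries), with 95% intervals as bars. E2F7 lies above 2, E2F5 near -1.8 in both, E2F4 near 0, and E2F8 at 0.16 in the miR-17 TuD groups and 0.55 in the NC TuD groups.

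The promoters of the members were read for E2F-type motifs, and a link to the differences between the lines was not tested. The RefSeq promoters on GRCh38.p14, 250 bases before to 50 after each start, were searched on both strands for TTTCGCG and TTTGGCG, common forms of the E2F site that do not overlap each other. E2F1 and E2F2 held both, a promoter of E2F3 held TTTCGCG, and the promoters listed for E2F4, E2F6 and E2F7 held neither. The other promoter listed for E2F3 held neither as well. Of 35116 promoters in the table, 1.32% held TTTCGCG, 1.92% held TTTGGCG, 3.19% held either and 0.0456% held both. E2F5 and E2F8 had no entry. The stretches are printed on the strand of the gene with the motifs in capitals, because these are the promoters of members in which either motif was found.
E2F1: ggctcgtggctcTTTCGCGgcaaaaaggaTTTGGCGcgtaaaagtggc
E2F2: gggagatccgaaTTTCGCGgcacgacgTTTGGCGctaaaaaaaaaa
E2F3: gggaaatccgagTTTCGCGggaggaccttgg

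The E2F1 stretch is chr20:33686387-33686434 on the minus strand, from base -49 to base -2 relative to the start. The E2F2 stretch is chr1:23531257-23531302 on the minus strand, from base -69 to base -24, and the E2F3 stretch is chr6:20401828-20401858 on the plus strand, from base -51 to base -21. A match describes the letters and does not show that an E2F protein was bound.

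To set levels of different members beside each other, CPM were divided by the length of the longest annotated transcript in kilobases. On this scale E2F4 was the highest in every group, at 62.5 ± 4.31 CPM per kilobase in HepG2 miR-17 TuD, 58.4 ± 2.06 in HepG2 NC TuD (SD, n = 3 each), 58.2 ± 1.01 in SK-Hep1 miR-17 TuD and 58.0 ± 5.29 in SK-Hep1 NC TuD (SD, n = 2 each). E2F1 came next in every group, at 35.9 and 34.9 CPM per kilobase in HepG2 miR-17 TuD and HepG2 NC TuD, and at 26.9 and 25.0 in SK-Hep1 miR-17 TuD and SK-Hep1 NC TuD. The rest of the order differed between the lines.

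In HepG2 E2F6 followed E2F1, then E2F3 and E2F5, whose ranges overlapped, then E2F8, and last E2F2 and E2F7, whose ranges overlapped too. This order held in both HepG2 groups. In SK-Hep1 E2F7 followed E2F1, at 22.7 CPM per kilobase in the miR-17 TuD group and 23.1 in the NC TuD group, and the ranges of E2F7 and E2F1 overlapped in the NC TuD group. E2F3, E2F8, E2F6, E2F2 and E2F5 came after them, with E2F5 last at 2.66 and 2.98 CPM per kilobase in the miR-17 TuD and NC TuD groups. The choice of length changed this order. Over the union of all annotated exons the ranges of E2F4 and E2F1 overlapped in both HepG2 groups, and E2F5 was last in every group. E2F1 then had the higher mean in HepG2 NC TuD (34.9 against 34.2 CPM per kilobase). The ranges of E2F7 and E2F1 in SK-Hep1 NC TuD, and of E2F2 and E2F7 in HepG2 miR-17 TuD, no longer overlapped.

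The summed level of the family per kilobase was nearly the same in all groups. It was 150.0 ± 4.51 CPM per kilobase in HepG2 miR-17 TuD, 146 ± 4.18 in HepG2 NC TuD (SD, n = 3 each), 145 ± 1.80 in SK-Hep1 miR-17 TuD and 143 ± 9.31 in SK-Hep1 NC TuD (SD, n = 2 each). The make-up of that sum differed between the lines. The atypical repressors held 21.2% and 22.4% of it in SK-Hep1 miR-17 TuD and SK-Hep1 NC TuD, against 8.26% and 7.47% in HepG2 miR-17 TuD and HepG2 NC TuD. E2F6 held 4.92% and 4.47% in the same SK-Hep1 groups, against 9.66% and 10.7% in the HepG2 groups.

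E2F4 and E2F5 together held 41.8% in SK-Hep1 miR-17 TuD and 42.5% in SK-Hep1 NC TuD, against 47.8% in HepG2 miR-17 TuD and 47.2% in HepG2 NC TuD. The activators held 32.1% in SK-Hep1 miR-17 TuD and 30.7% in SK-Hep1 NC TuD, against 34.3% in HepG2 miR-17 TuD and 34.6% in HepG2 NC TuD. Within HepG2 the atypical share ranged from 7.79% to 8.81% in the miR-17 TuD libraries and from 7.33% to 7.60% in the NC TuD libraries. These shares are descriptions of a few libraries, without a test. They depend on the length used. Over the union of all annotated exons the activators held more than E2F4 and E2F5 in every group, at 45% against 34.2% in HepG2 NC TuD.

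**Figure D4:**
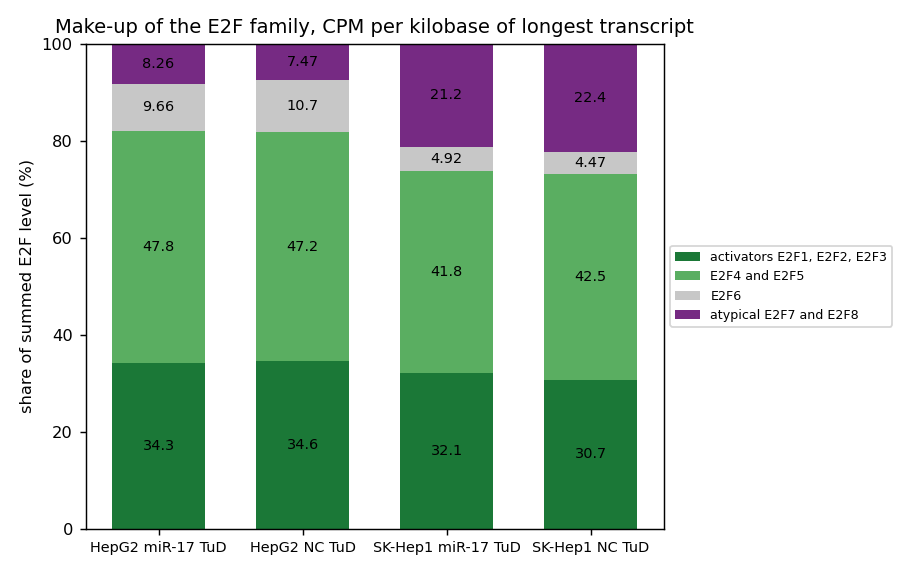
Share (%) of the summed E2F level, in CPM per kilobase of the longest transcript, held by the activators E2F1 to E2F3, by E2F4 and E2F5, by E2F6 and by the atypical E2F7 and E2F8; bars are group means of 3 HepG2 or 2 SK-Hep1 libraries. The atypical share is 21.2% and 22.4% in the SK-Hep1 groups and 8.26% and 7.47% in the HepG2 groups.

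The partners of the E2F proteins were looked at next. The DP proteins form the DNA-binding dimer with E2F1 to E2F6. As background, edgeR called 19.3% of all tested genes in HepG2, 0.869% in SK-Hep1 and 86.7% between the NC TuD groups. Of 3 listed DP genes 2 were tested, and edgeR called 0 of 2 in HepG2 miR-17 TuD against HepG2 NC TuD, where TFDP1 differed by 0.06 ± 0.04 and TFDP2 by 0.15 ± 0.06 log2 (adjusted p = 0.378 and 0.0631). At an unadjusted p below 0.05 the count was 1 of 2 with edgeR, DESeq2 and limma. In SK-Hep1 0 of 2 were called by any of these tools, also without adjustment, and TFDP1 differed by -0.04 ± 0.05 and TFDP2 by 0.09 ± 0.08 log2 (adjusted p = 0.891 and 0.818, edgeR). Between the lines they went apart. TFDP1 was 0.78 ± 0.04 log2 higher in SK-Hep1 NC TuD than in HepG2 NC TuD (adjusted p = 3.57e-24), and TFDP2 was lower there, at -0.78 ± 0.07 log2 (adjusted p = 2.71e-15).

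The pocket proteins hold E2Fs in check. Over all tested genes edgeR called 10.7% higher and 8.58% lower in HepG2, and 0.667% and 0.202% in SK-Hep1. Between the NC TuD groups it called 43.9% higher and 42.8% lower. RBL1, which encodes p107, was called higher in HepG2 miR-17 TuD, at 61.7 CPM against 54.1 CPM in HepG2 NC TuD (0.19 ± 0.07 log2; adjusted p = 0.043, edgeR). The call was lost with DESeq2 (adjusted p = 0.117), on the deposited log2 values (adjusted p = 0.218), with HepG2 libraries alone (adjusted p = 0.0579), and without HepG2 miR-17 TuD replicate 3, HepG2 NC TuD replicate 1 or HepG2 NC TuD replicate 3 (0.07 to 0.19 log2, adjusted p of 0.0716 to 0.484). With same-numbered libraries blocked in the fit, the replicate block, it was lost too (adjusted p = 0.0647). RB1, the retinoblastoma gene, and RBL2, which encodes p130, differed by 0.08 ± 0.05 and 0.12 ± 0.05 (adjusted p = 0.33 and 0.0642). With DESeq2 size factors in edgeR, RBL2 (0.13, adjusted p = 0.0474) passed the threshold, as did TFDP2 (0.16, adjusted p = 0.0467). None of the pocket genes, 0 of 3, was called in SK-Hep1 with edgeR, DESeq2 and limma, and 0 of 3 at an unadjusted p below 0.05. RB1 differed there by 0.00 ± 0.06, RBL1 by 0.05 ± 0.09 and RBL2 by -0.01 ± 0.06 log2 (adjusted p = 1, 0.958 and 1), signs that depend on the scaling or on single libraries. Comparing SK-Hep1 NC TuD with HepG2 NC TuD, RB1 was higher (0.43 ± 0.06; adjusted p = 6.25e-10) and RBL1 (-0.59 ± 0.08; adjusted p = 8.08e-09) and RBL2 (-0.30 ± 0.06; adjusted p = 2.11e-06) were lower.

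Upstream of the pocket proteins, 12 listed G1 cyclins, kinases and inhibitors gave 2 higher and 1 lower call in HepG2 and 0 higher and 1 lower in SK-Hep1. Over all tested genes 10.7% were called higher and 8.58% lower in HepG2, and 0.667% and 0.202% in SK-Hep1. CDKN1A, the p21 inhibitor of cyclin-dependent kinases, averaged 215 CPM in HepG2 miR-17 TuD and 163 CPM in HepG2 NC TuD (0.40 ± 0.04 log2; adjusted p = 3.6e-12, edgeR). CCND1, encoding cyclin D1, averaged 578 CPM in HepG2 miR-17 TuD and 486 CPM in HepG2 NC TuD (0.25 ± 0.03 log2; adjusted p = 4.11e-08). CDK6, the kinase partner of the D cyclins, was lower in both lines, by -0.16 ± 0.04 in HepG2 (adjusted p = 0.00198) and by -0.29 ± 0.05 in SK-Hep1 (adjusted p = 0.000284). In SK-Hep1 DESeq2 called 2 of the 12 higher, and edgeR counted 2 higher at an unadjusted p below 0.05. Between SK-Hep1 NC TuD and HepG2 NC TuD, 9 were higher and 3 lower, among them CDKN1A (1.72 ± 0.04), CCND3 (1.80 ± 0.07) and CDK2 (1.32 ± 0.05), all higher. Of all tested genes 43.9% were called higher there and 42.8% lower.

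The targets that activator E2Fs switch on at the start of DNA synthesis did not move together with the decoy. Of 40 listed G1/S targets, 4 were called higher and 4 lower in HepG2, and the median log2 fold change was -0.02, beside 0.00 over all tested genes. Over all tested genes 10.7% were called higher and 8.58% lower in this comparison, so the split of the list was near the background. RRM2, a subunit of ribonucleotide reductase (0.20 ± 0.04; adjusted p = 5.14e-05, edgeR), the DNA ligase gene LIG1 (0.20 ± 0.05; adjusted p = 0.00177), CCNE2 for cyclin E2 (0.41 ± 0.11; adjusted p = 0.0027) and the thymidine kinase gene TK1 (0.17 ± 0.04; adjusted p = 0.00311) were higher. NASP, a histone chaperone (-0.18 ± 0.04; adjusted p = 0.000602), the phosphatase gene CDC25A (-0.22 ± 0.06; adjusted p = 0.0033), the replication licensing gene CDC6 (-0.16 ± 0.05; adjusted p = 0.00634) and the clamp loader gene RFC3 (-0.15 ± 0.05; adjusted p = 0.0405) were lower. TK1, CDC25A, CDC6 and RFC3 were named after their values were seen. The calls of CDC25A (adjusted p = 0.0566), CDC6 (adjusted p = 0.0595) and RFC3 (adjusted p = 0.19) were lost on the deposited log2 values. CDC6 was also lost without HepG2 miR-17 TuD replicate 1 or HepG2 NC TuD replicate 2 (adjusted p of 0.0505 to 0.069), and RFC3 with DESeq2 (adjusted p = 0.165) and without HepG2 miR-17 TuD replicates 1 or 2 or HepG2 NC TuD replicates 1 or 2 (-0.16 to -0.09, adjusted p of 0.0754 to 0.275). Further losses of RFC3 were with DESeq2 size factors (adjusted p = 0.0553), with the replicate block (0.0994) and with HepG2 libraries alone (0.0507).

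In SK-Hep1, where edgeR called 0.667% of all tested genes higher and 0.202% lower, it called 0 of the 40 G1/S targets higher and 1 lower. DESeq2 and limma gave the same counts for the list. At an unadjusted p below 0.05 edgeR counted 1 higher and 6 lower. The median log2 fold change was -0.08, beside -0.01 over all tested genes. The gene called was GINS1, part of the replicative helicase, at 69.9 CPM in SK-Hep1 miR-17 TuD and 84.8 CPM in SK-Hep1 NC TuD (-0.28 ± 0.06; adjusted p = 0.00674). With the replicate block GINS1 did not pass (adjusted p = 0.0801). It was lost without SK-Hep1 miR-17 TuD replicate 2 or SK-Hep1 NC TuD replicate 2 (-0.25 to -0.23, adjusted p of 0.164 to 0.351). The direct test of the difference in response called 2.51% of all tested genes lower and 1.24% higher. Of the 40 targets it called 3 lower and 0 higher, LIG1, CCNE2 and TK1, each of which had been higher in HepG2. DESeq2 called 2 lower and limma on the deposited log2 values 0. CCNE2 was lost with DESeq2 (adjusted p = 0.0881) and on the deposited values (adjusted p = 0.121), and LIG1 (adjusted p = 0.0501) and TK1 (adjusted p = 0.143) on the deposited values. Without adjustment edgeR counted 1 higher and 9 lower at a p below 0.05.

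Genes of mitosis, which are repressed by E2F4 in the DREAM complex, were split in HepG2. Of 20 listed G2/M targets, 2 were called higher and 5 lower, with a median of -0.06 beside 0.00 over all tested genes. Of all tested genes 10.7% were called higher and 8.58% lower. The proliferation marker gene MKI67 (0.21 ± 0.04; adjusted p = 5.68e-06, edgeR) and the kinesin gene KIF23 (0.31 ± 0.05; adjusted p = 1.17e-05) were higher. BIRC5 for survivin (-0.15 ± 0.04; adjusted p = 0.00387), CDK1 for the mitotic kinase (-0.15 ± 0.04; adjusted p = 0.00823), the kinesin gene KIF20A (-0.14 ± 0.05; adjusted p = 0.0191), the checkpoint kinase gene BUB1 (-0.13 ± 0.04; adjusted p = 0.0254) and the Aurora kinase gene AURKA (-0.12 ± 0.04; adjusted p = 0.0262) were lower. KIF20A, BUB1 and AURKA were named after their values were seen.

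Of the 5 lower calls, BIRC5 was kept under every alternative run and the other 4 were lost without 1 of several libraries. CDK1 was lost without HepG2 miR-17 TuD replicate 2 or HepG2 NC TuD replicate 1 (-0.14 to -0.12, adjusted p of 0.0522 to 0.0678), and KIF20A without HepG2 NC TuD replicates 2 or 3 (-0.13 to -0.12, adjusted p of 0.0592 to 0.084). BUB1 was lost with DESeq2 (adjusted p = 0.0707) and without HepG2 miR-17 TuD replicates 1 or 2 or HepG2 NC TuD replicate 2 (-0.13 to -0.09, adjusted p of 0.0867 to 0.206). AURKA was lost with DESeq2 (adjusted p = 0.0864) and without HepG2 miR-17 TuD replicate 2 or HepG2 NC TuD replicates 1 or 2 (-0.12 to -0.08, adjusted p of 0.0925 to 0.271). BUB1 and AURKA were also lost on the deposited log2 values (adjusted p = 0.0601 and 0.0984). With the replicate block KIF20A (adjusted p = 0.0731), BUB1 (0.0938) and AURKA (0.0982) were lost too.

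In SK-Hep1, 0 of the 20 G2/M targets were called higher and 3 lower, with a median of -0.11 beside -0.01 over all tested genes. Of all tested genes 0.667% were called higher and 0.202% lower. Without adjustment, at a p below 0.05, edgeR counted 1 of the 20 higher and 14 lower, and DESeq2 and limma 1 higher and 9 lower each. How many of all tested genes had such a p was not counted, so these counts have no background beside them. The 3 called were the kinetochore gene CENPF (-0.20 ± 0.05; adjusted p = 0.0151, edgeR), MKI67 (-0.17 ± 0.04; adjusted p = 0.0209) and the checkpoint kinase gene BUB1B (-0.22 ± 0.06; adjusted p = 0.039). MKI67 averaged 726 CPM in SK-Hep1 miR-17 TuD and 817 CPM in SK-Hep1 NC TuD, and 386 CPM in HepG2 miR-17 TuD and 333 CPM in HepG2 NC TuD. Each of the 3 SK-Hep1 calls was lost on the deposited log2 values (adjusted p = 0.212 for CENPF, 0.116 for MKI67 and 0.154 for BUB1B). With the replicate block each was lost as well (0.151, 0.238 and 0.252 in the same order). DESeq2 lost CENPF (0.0506) and BUB1B (0.148), and DESeq2 size factors lost BUB1B (0.0619). CENPF was also lost without SK-Hep1 miR-17 TuD replicate 1 or SK-Hep1 NC TuD replicate 2 (-0.15 to -0.14, adjusted p of 0.413 to 0.656), and MKI67 without any of the 4 SK-Hep1 libraries (adjusted p of 0.0757 to 0.355). BUB1B was lost without any of those 4 libraries, HepG2 miR-17 TuD replicate 1 or HepG2 NC TuD replicate 1 (adjusted p of 0.0558 to 0.403). The direct test of the difference in response called 0 of 20 higher and 2 lower, beside 1.24% and 2.51% of all tested genes. The 2 were MKI67 (-0.38 ± 0.05; adjusted p = 1.52e-06) and the mitotic kinase gene PLK1 (-0.22 ± 0.07; adjusted p = 0.0402). PLK1 was lost with DESeq2 (adjusted p = 0.0707) and on the deposited values (adjusted p = 0.0722).

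**Figure D5:**
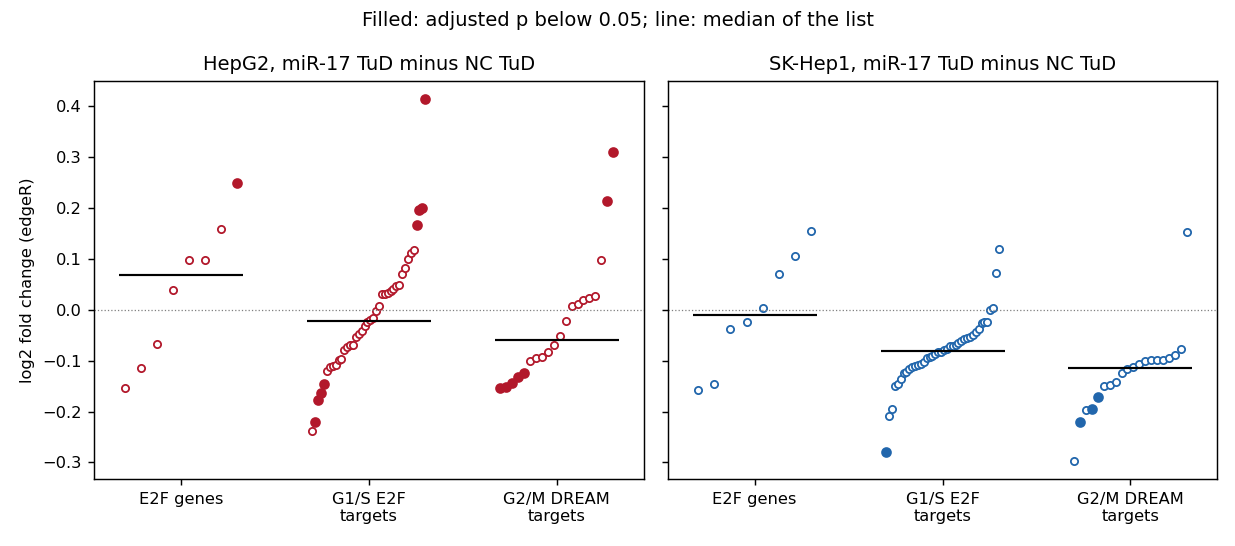
Log2 fold change, miR-17 TuD minus NC TuD, of the 8 E2F genes, 40 G1/S targets and 20 G2/M targets in HepG2 (left) and SK-Hep1 (right); filled points passed the adjusted test, lines are list medians, and points are spread sideways by rank. The G1/S and G2/M medians are -0.02 and -0.06 in HepG2 and -0.08 and -0.11 in SK-Hep1.

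Between the lines the mitotic list was mostly higher in SK-Hep1, at 16 of 20 called higher and 3 lower in the NC TuD groups, with a median of 0.61 beside 0.02 over all tested genes, of which 43.9% were called higher and 42.8% lower. The G1/S list, at 19 of 40 higher and 18 lower with a median of 0.01, was near that background. TK1 (1.26 ± 0.04), CCNE2 (1.94 ± 0.10) and MCM6 (1.01 ± 0.05), which encodes a helicase subunit, were higher in SK-Hep1 NC TuD, and CDCA7 (-1.19 ± 0.06), a MYC and E2F target gene, was lower.

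Genes of complexes that work with the repressor E2Fs were compared between miR-17 TuD and NC TuD. Over all tested genes 10.7% were called higher and 8.58% lower in HepG2, and 0.667% and 0.202% in SK-Hep1. Of 8 MuvB and MYB genes, FOXM1, the transcription factor of mitotic genes, was the only call in HepG2 (0.18 ± 0.05; adjusted p = 0.00227, edgeR). Of these 8, edgeR, DESeq2 and limma called 0 in SK-Hep1, with 0 higher and 2 lower by edgeR at an unadjusted p below 0.05. Between SK-Hep1 NC TuD and HepG2 NC TuD 4 were higher and 3 lower, and MYBL1, a MYB family gene, differed by 3.43 ± 0.08 log2, at 105 CPM in SK-Hep1 NC TuD and 9.79 CPM in HepG2 NC TuD. Of 10 genes of the E2F6 Polycomb complex, 0 were called in either line by the same tools. At an unadjusted p below 0.05 edgeR counted 2 lower in HepG2 and 1 lower in SK-Hep1. Between the NC TuD groups 6 of the 10 were higher and 3 lower in SK-Hep1, including CBX3 (0.48 ± 0.04), which encodes a heterochromatin protein, and MGA (-0.58 ± 0.06), the scaffold of the complex, while E2F6 itself was lower. The 4 and 3 of 8 and the 6 and 3 of 10 stand beside 43.9% of all tested genes called higher and 42.8% lower.

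Of 4 genes for the turnover of E2F proteins, SKP2, a ubiquitin ligase subunit that targets E2F1, was lower in HepG2 miR-17 TuD (-0.15 ± 0.05; adjusted p = 0.0205, edgeR). This call was lost with DESeq2 (adjusted p = 0.0882) and without HepG2 miR-17 TuD replicates 1 or 2 or HepG2 NC TuD replicate 1 (-0.14 to -0.12, adjusted p of 0.101 to 0.142). SKP2 was also lost on the deposited log2 values (adjusted p = 0.0929) and with the replicate block (adjusted p = 0.0676). In SK-Hep1 0 of 4 were called by edgeR, DESeq2 and limma, with 1 lower by edgeR at an unadjusted p below 0.05. Of 10 apoptosis genes that E2F1 is known to activate, 2 were higher and 0 lower in HepG2. They were TP73, the p53 relative (0.47 ± 0.12; adjusted p = 0.00279), and APAF1, the apoptosome scaffold (0.22 ± 0.07; adjusted p = 0.0191). TP73 was lost without HepG2 miR-17 TuD replicate 2 (0.34, adjusted p = 0.0677), and APAF1 with DESeq2 (adjusted p = 0.053) and without HepG2 miR-17 TuD replicate 3 or HepG2 NC TuD replicate 1 (0.14 to 0.17, adjusted p of 0.153 to 0.189). On the deposited log2 values APAF1 was lost too (adjusted p = 0.0771). In SK-Hep1 0 of 10 were called by the 3 tools, and 0 of 10 at an unadjusted p below 0.05. Over all tested genes edgeR called 10.7% higher and 8.58% lower in HepG2, and 0.667% and 0.202% in SK-Hep1.

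The genes most like E2F1 and E2F8 were sought over all 10 libraries after the mean of each line had been subtracted, among 11987 genes outside the family whose log2 CPM averaged 1 or more. TRAPPC5 (Pearson r = 0.975) and ADRBK1 (r = 0.961) were most like E2F1, and PTGDR2 (r = 0.959) and RPAP1 (r = 0.937) were most like E2F8. Of all candidates, 1.76% had an r above 0.8 with E2F1 and 2.2% with E2F8. None of these genes belonged to the listed E2F targets.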

How the data were processed

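RNA libraries (10, from 4 stable lines) were read as 50 bp pairs. The authors deposited whole-number counts per gene, made with STAR, hg19 and HTSeq 0.5.4p5 per the submitters' processing notes, whereas the series text names other tools and a mouse genome; the gene symbols are human and the files end in HTSeq summary entries. These entries, 19.3% to 22.3% of each column, were left out. The deposited log2 matrix of 13658 genes equals log2 of the count plus 0.5 over an effective library size, checked to 5.2e-14 for the 13616 genes matched.

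Counts were filtered by filterByExpr, scaled by TMM and fitted with edgeR 4.0.16 (R 4.3.3) as 4 group means over all 10 libraries, with robust quasi-likelihood tests, two-sided. Adjustment was over 13349 genes in each of 5 comparisons. SE is the log2 fold change over the root of F. Alternatives were DESeq2 size factors, no filter, DESeq2 1.42.0, limma 3.58.1 on the deposited log2 values, replicate block, 1 line only, each library left out, other lengths and all 3′UTRs. The scripts were tested on simulated data. Replicate pairs differed by more than counting noise (chi-square over degrees of freedom 1.39 to 3.59, genes with at least 10 counts in the pair). Same-numbered libraries did not deviate together.

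The E2F members and all gene lists were chosen with earlier results of these data known. Named genes are all members and at most 4 called genes of each list by adjusted p, plus every DP and pocket gene. Lengths and 3′UTRs came from GENCODE 29, with 18293 symbols matched directly, 730 by synonym and 192 not. Genes named beyond this rule are said to be in the text, except C8orf59, named because it overlaps E2F5. The benchmarks ZNFX1 and TGFBR2 and the host gene MCM7 are named under the rule. Intervals cover the spread between these libraries.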

Additional observations from a re-analysis of the deposited data

Results flagged for a closer look

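Of 57 genes examined (the 8 members and the other genes named with a fold change), the decoy responses of 10 differed between the lines by the direct test, 1 higher and 9 lower, where 3.75% of all tested genes did, 1.24% higher and 2.51% lower. Most of the 57 were named because they were called in some comparison, so this share is no estimate for the lists. All values are given as one log2 difference (SK-Hep1 response minus HepG2 response, log2, adjusted p by edgeR over all tested genes). E2F8 differed by -0.39 ± 0.12 (adjusted p = 0.0394), with a response of -0.15 in SK-Hep1 and 0.25 in HepG2. Among its G1/S neighbours in the lists, CCNE2 differed by -0.52 ± 0.14 (adjusted p = 0.0152), LIG1 by -0.30 ± 0.07 (adjusted p = 0.0083) and TK1 by -0.24 ± 0.06 (adjusted p = 0.0228). Of the mitotic genes, MKI67 differed by -0.38 ± 0.05 (adjusted p = 1.52e-06), PLK1 by -0.22 ± 0.07 (adjusted p = 0.0402) and FOXM1 by -0.26 ± 0.07 (adjusted p = 0.0139). CDKN1A differed by -0.24 ± 0.06 (adjusted p = 0.00604). The benchmark ZNFX1 differed by -0.37 ± 0.07 (adjusted p = 0.00101), and C8orf59, which overlaps E2F5, by 0.50 ± 0.13 (adjusted p = 0.0124). MKI67 and ZNFX1 were the only ones of these 10 that kept their call under every alternative run.

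The others were lost without at least 1 library. E2F8, CCNE2, PLK1 and C8orf59 were also lost with DESeq2, and these 4, FOXM1 (adjusted p = 0.128), LIG1 and TK1 on the deposited log2 values. For C8orf59 these adjusted p were 0.0703 and 0.0968, and it was lost without any of 3 libraries (0.43 to 0.46, adjusted p of 0.0708 to 0.0898). With the replicate block CDKN1A (adjusted p = 0.0766), LIG1 (0.0688), CCNE2 (0.0549), FOXM1 (0.113), TK1 (0.145), PLK1 (0.185) and E2F8 (0.116) were lost. CDKN1A was lost without SK-Hep1 miR-17 TuD replicate 2 (-0.23, adjusted p = 0.0683). LIG1 (-0.30 to -0.27, adjusted p of 0.056 to 0.094), CCNE2 (-0.51 to -0.40, 0.0579 to 0.174) and FOXM1 (-0.25 to -0.20, 0.0519 to 0.189) were lost without replicate 2 of either SK-Hep1 group, CCNE2 also without HepG2 NC TuD replicate 1 and FOXM1 also without HepG2 miR-17 TuD replicate 1. TK1 was lost without any of 6 libraries (-0.24 to -0.20, adjusted p of 0.0543 to 0.162), PLK1 without any of 8 (-0.24 to -0.19, 0.064 to 0.181) and E2F8 without any of 7 (-0.40 to -0.34, 0.0542 to 0.138).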

How the results depend on the processing

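Over the alternatives run, all 7 member calls in the NC TuD groups and all 6 in the miR-17 TuD groups between the lines kept their side of the threshold, and 0 of 8 members were called in SK-Hep1 in each. The HepG2 member count of 1 higher became 0 with DESeq2 and was 0 to 1 without single libraries. The difference count of 1 lower became 0 with DESeq2, on the deposited log2 values and with the replicate block, and was 0 to 1 without single libraries. Same-numbered libraries did not deviate together (correlations of 0.092, -0.502 and -0.458 in HepG2 and -0.147 in SK-Hep1), so the replicate block is a description. Under it E2F8 had a difference of -0.40 (adjusted p = 0.116). Some HepG2 libraries of different numbers did deviate together. The correlation was 0.447 for miR-17 TuD replicate 2 with NC TuD replicate 3, and 0.548 for miR-17 TuD replicate 3 with NC TuD replicate 2. The other such pairs lay between -0.168 and 0.12, and no crossed pairing was run in HepG2. A crossed pairing of SK-Hep1, added after seeing the data, left 0 G1/S and 0 G2/M genes lower.

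G1/S targets lower in HepG2 (4) became 1 on the deposited values and 2 to 8 without single libraries. In SK-Hep1 the 1 lower became 0 with the replicate block and 4 with SK-Hep1 libraries alone, where 1 was higher, and was 0 to 3 without single libraries. G2/M targets lower in HepG2 (5) became 3 with DESeq2, 3 on the deposited values, 2 with the replicate block and 2 to 6 without single libraries. In SK-Hep1 the 3 lower became 5 with no filter, 1 with DESeq2, 0 on the deposited values, 0 with the replicate block and 7 with SK-Hep1 libraries alone, where 1 was higher, and were 0 to 5 without single libraries. The cause was not tested.

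With the union of exons the shares in HepG2 miR-17 TuD, HepG2 NC TuD, SK-Hep1 miR-17 TuD and SK-Hep1 NC TuD became 44.6%, 45.0%, 39.7% and 38.2% for activators, 34.9%, 34.2%, 30.7% and 31.2% for E2F4 and E2F5, 10.9%, 12.1%, 5.33% and 4.88% for E2F6, and 9.61%, 8.71%, 24.3% and 25.7% for atypical members. Near-zero values changed sign without calls. E2F5's difference was 0.00 with DESeq2 size factors and 0.01 on the deposited values, and -0.23 to 0.24 without single libraries. The other ranges without single libraries were -0.02 to 0.08 for E2F1 in HepG2, and in SK-Hep1 -0.17 to 0.12 for E2F2, -0.08 to 0.10 for E2F4, -0.38 to 0.09 for E2F5, -0.11 to 0.07 for E2F7, -0.05 to 0.05 for RB1, -0.01 to 0.11 for RBL1 and -0.05 to 0.03 for RBL2. In SK-Hep1 RB1 was 0.01 with DESeq2 size factors and with DESeq2, and 0.00 on the deposited values and with SK-Hep1 libraries alone, and RBL2 was 0.00 with DESeq2 size factors and with DESeq2. E2F4 ranged from -0.18 to 0.00 in the difference and from -0.11 to 0.08 between the NC TuD groups.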
